A study of Mus musculus with 49 samples.

Results

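Astrocytes support neurons in their resting state by clearing glutamate and potassium from the extracellular space, by sharing ions and metabolites through gap junctions and by supplying metabolic substrates. The genes described here encode that machinery in the mouse neocortex, and some of them are known to lose expression when astrocytes become reactive in disease. They are the glutamate transporters Slc1a2 and Slc1a3, the glutamine synthetase gene Glul, the metabolic enzyme genes Aldh1l1 and Aldoc, the potassium channel gene Kcnj10, the connexin genes Gja1 and Gjb6, the calcium-binding protein gene S100b and the transcription factor gene Sox9. These 10 genes were taken by symbol from the deposited count table of 45252 genes. All 10 were found, and all 10 were among the 18220 genes that passed a filter on low counts.

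The counts came from neocortical RNA of 49 mice, 1 library per mouse, from a study of active immunization against TDP-43. rNLS8 mice are bigenic, heterozygous for NEFH-tTA and for tetO-hTDP43∆NLS (background mixed from C57BL/6J x C3H/HeJ), so that human TDP-43 lacking its nuclear localization signal is made once doxycycline is withdrawn. The NEFH promoter drives the transactivator in neurons, and the transgene was therefore not aimed at astrocytes. All groups had doxycycline removed at 25.5 weeks of age and were sacrificed 3 weeks later, at 28.5 weeks.
The ctrl PBS group comprised 17 monogenic mice that carried tetO-hTDP43∆NLS alone and received PBS (10 females, 7 males). The TDP-PBS group comprised 10 bigenic mice that received PBS (4 females, 6 males). The TDP10 + 12 group comprised 10 bigenic mice immunized with peptides 10 and 12 together (6 females, 4 males), and the TDP15 group comprised 12 bigenic mice immunized with peptide 15 (5 females, 7 males). Vaccination started at 8 weeks, with 5 doses before and 1 after doxycycline withdrawal. Each dose was 40 µg of peptide conjugated to ovalbumin, or PBS in its place. Immunized and PBS-treated mice therefore differed in the ovalbumin carrier as well as in the peptide. No monogenic mice with a peptide vaccine were among these libraries, so the immunized groups can be set against ctrl PBS only for genotype and vaccine together.

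Total counts were between 17775738 and 21033608 per mouse, and the 10 genes were far above the counting limit in every library, the lowest count being 475 reads for Gjb6 in 1 TDP-PBS mouse. Levels are given as CPM, counts scaled to a common library size and adjusted by the trimmed mean of M values (TMM), with factors from 0.929 to 1.06. In 8 mice both Omp and Eomes, markers of the olfactory bulb, were above 1 CPM (3 of ctrl PBS, 0 of TDP-PBS, 2 of TDP10 + 12 and 3 of TDP15). Ttr, made by the choroid plexus, exceeded 100 CPM in 10 mice (2, 3, 2 and 3 in the same order), with medians of 16.3, 31.7, 23.3 and 23.0 CPM and maxima of 336, 1221, 1583 and 1457 CPM. Gh, a pituitary hormone gene, reached 44.8 CPM in ctrl PBS mouse 99, and Ppp1r1b, a striatal marker, spanned 148 to 613 CPM within ctrl PBS. Of 13 such markers of other tissues tested, 4 were lower in TDP-PBS (Omp, Eomes, Doc2g and Gh), 3 were higher in TDP10 + 12 (Ttr, Folr1 and Prox1), and in TDP15 2 were higher (Ttr and Prox1) and 2 lower (Gh and Drd1), each against ctrl PBS. These shares of 30.8%, 23.1% and 30.8% were below the 43.5%, 40.8% and 46.9% called among all genes in the same comparisons. The tests of the 10 genes, their correlations and the gene lists were repeated without the 8 mice with olfactory markers and without the 10 with high Ttr, and the calls of the 10 genes that changed are given with their values. Bulk tissue was sequenced, so fewer astrocytes and less RNA per astrocyte cannot be told apart.

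Length-corrected levels show how abundant each transcript was. On the RPKM scale, which divides CPM by the exon length in kilobases, the mean level in ctrl PBS was highest for Glul (464 ± 52.7, SD, n = 17), followed by Aldoc (176 ± 14.8), Slc1a2 (147 ± 11.7) and Slc1a3 (74.8 ± 5.88). S100b (53.8 ± 4.19) and Kcnj10 (45.4 ± 4.45) lay next, and Gja1 reached 29.4 ± 3.01 RPKM. Gjb6 (14.6 ± 2.06), Sox9 (10.4 ± 1.01) and Aldh1l1 (8.83 ± 0.92) were the least abundant of the 10. The ranges of 1 SD around the mean overlapped for S100b and Kcnj10 and for Sox9 and Aldh1l1, and for no other neighbours in this order.

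In TDP-PBS mice the astrocyte programme changed unevenly. Slc1a2 and Gja1 fell, Gjb6 rose, and the other 7 did not pass the test against ctrl PBS. The Gjb6 call was the least stable, lost in 5 of 11 alternatives and in 10 of 49 fits with 1 mouse left out, while the other 2 calls held in all. With edgeR's quasi-likelihood test and Benjamini-Hochberg adjustment over all 18220 genes, 2 of 10 were lower and 1 of 10 was higher, where 21.6% of all genes tested were lower, 21.9% were higher and 43.5% were called in either direction. The median log2 fold change of the 10 was -0.04, beside 0.00 for all genes. In TDP10 + 12 against ctrl PBS, 3 of 10 (Slc1a2, Glul and Gja1) were lower and 0 were higher, beside 20.0% lower, 20.8% higher and 40.8% in either direction among all genes. In TDP15 against ctrl PBS, 4 of 10 (Slc1a2, Slc1a3, Glul and Gja1) were lower and 0 were higher, beside 23.2% lower, 23.6% higher and 46.9% in either direction. Their medians were -0.05 and -0.07. In either direction 3, 3 and 4 of the 10 were called, which is not above the share among all genes, and the description below is of which genes moved. The 3 comparisons share the 17 ctrl PBS mice and are not independent of each other.

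**Figure D1:**
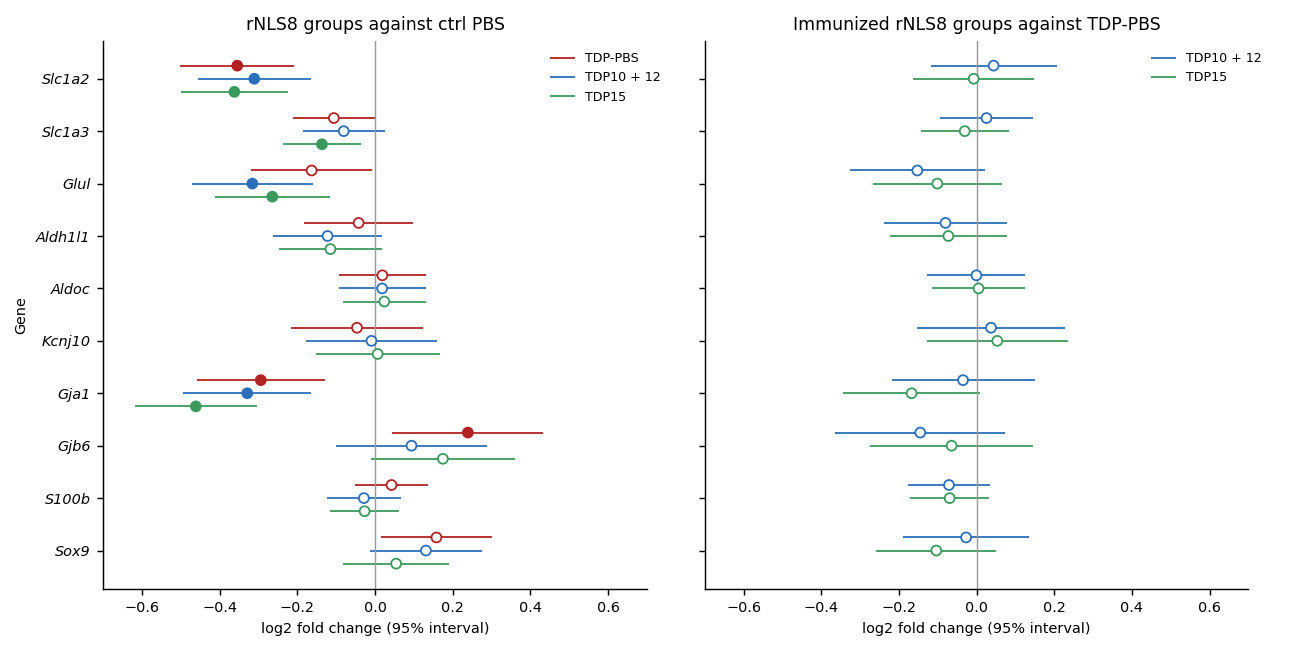
Log2 fold change (x axis) of the 10 astrocyte genes (y axis) in the rNLS8 groups against ctrl PBS (left) and in the immunized rNLS8 groups against TDP-PBS (right), with 95% intervals as lines and filled points for adjusted p under 0.05. Slc1a2 and Gja1 lie below 0 with filled points in all 3 rNLS8 groups on the left, Gjb6 is the one filled point above 0, and the right panel has no filled point.

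Of the glutamate uptake genes, Slc1a2 encodes GLT-1, the transporter that removes most synaptic glutamate in the forebrain, and it lies on chromosome 2 (chr2:102658239-102790784, plus strand, GRCm38.p6). The ctrl PBS mice spanned 1469 to 2008 CPM with a median of 1775, and the TDP-PBS mice 1103 to 1618 CPM with a median of 1393. In TDP10 + 12 it ranged from 1219 to 1642 CPM with a median of 1456, and in TDP15 from 885 to 1842 CPM with a median of 1316. All 10 TDP-PBS and all 10 TDP10 + 12 mice lay below the ctrl PBS median, with 6 and 5 of them below every ctrl PBS mouse. In TDP15, 11 of 12 mice were below that median and 9 were below every ctrl PBS mouse, while mice 59, 184 and 328 (1740, 1712 and 1842 CPM) stayed within the ctrl PBS range. The log2 fold change was -0.35 ± 0.07 (SE, adjusted p = 7.0e-05) in TDP-PBS, which is 78.2% of the ctrl PBS level, -0.31 ± 0.07 (adjusted p = 0.000444) in TDP10 + 12 and -0.36 ± 0.07 (adjusted p = 1.7e-05) in TDP15. All 3 calls held under every alternative run and with each of the 49 mice left out in turn.

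Slc1a3 encodes GLAST, the second astrocytic glutamate transporter (chr15:8634124-8710807, minus strand). The ctrl PBS mice spanned 294 to 392 CPM around a median of 323, and the TDP-PBS mice 270 to 365 CPM around 305. The TDP10 + 12 mice had a median of 317 CPM (range 266 to 346) and the TDP15 mice one of 298 CPM (range 239 to 358). The groups overlapped widely, and the lowest level of all mice belonged to TDP15 mouse 126, which was also the lowest for Slc1a2. The difference passed the test in TDP15 (log2 fold change -0.14 ± 0.05, adjusted p = 0.0209) and not in TDP-PBS (-0.11 ± 0.05, adjusted p = 0.0994) or TDP10 + 12 (-0.08 ± 0.05, adjusted p = 0.227). The TDP15 call was lost without the 8 mice with olfactory markers (-0.12, adjusted p = 0.101) and without any one of ctrl PBS mouse 71 (-0.11, adjusted p = 0.0626) or TDP15 mice 126 (-0.11, adjusted p = 0.0587) and 243 (-0.12, adjusted p = 0.0600).

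Glul encodes glutamine synthetase, which converts the glutamate taken up into glutamine (chr1:153899929-153909723, plus strand). Its median was 1282 CPM among ctrl PBS mice (range 1067 to 1578) and 1131 CPM among TDP-PBS mice (range 887 to 1495). The TDP10 + 12 median was 1049 CPM (range 858 to 1331) and the TDP15 median 1044 CPM (range 825 to 1317). The TDP-PBS mice were spread over almost the whole ctrl PBS range, with 5 of 10 below every ctrl PBS mouse, whereas 9 of 10 TDP10 + 12 and 11 of 12 TDP15 mice lay below the ctrl PBS median. Glul fell in TDP10 + 12 (log2 fold change -0.32 ± 0.08, adjusted p = 0.000833) and in TDP15 (-0.26 ± 0.07, adjusted p = 0.00239). In TDP-PBS its change of -0.16 ± 0.08 had an adjusted p of 0.0834, which dropped to 0.0302 without TDP-PBS mouse 82 (-0.21), to 0.0336 without mouse 91 (-0.20), to 0.0375 without the 10 mice with high Ttr (-0.21) and to 0.0358 with limma-voom (-0.19). The difference between the immunized groups and TDP-PBS did not pass the test for Glul, so a vaccine effect is not shown by these calls.

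**Figure D2:**
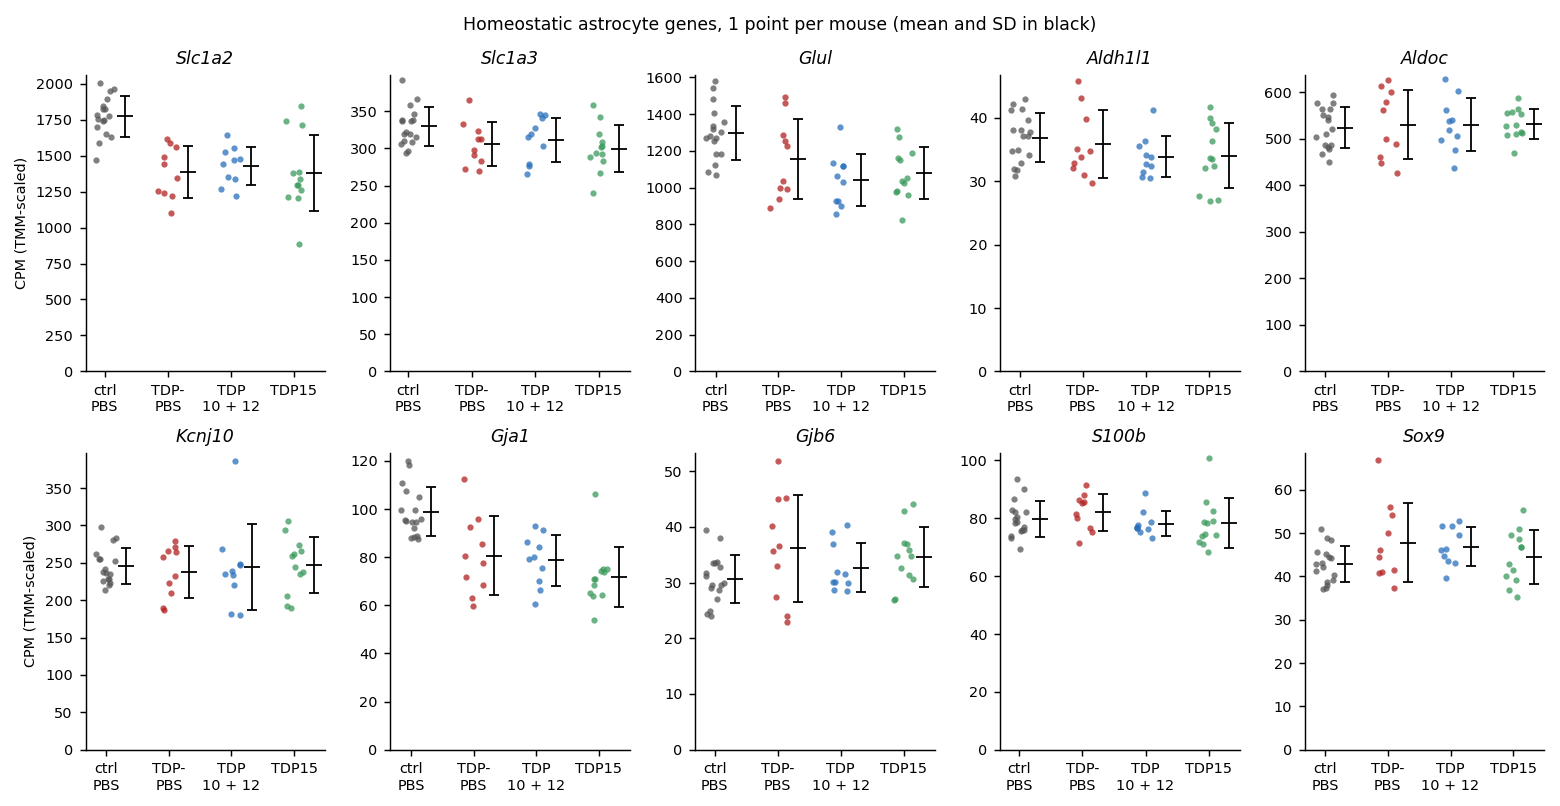
CPM (TMM-scaled, y axis from 0) of each of the 10 genes in every mouse, by group (x axis), with the group mean and SD in black. Slc1a2 and Gja1 sit lower in all 3 rNLS8 groups, and single mice stand apart, such as TDP10 + 12 mouse 301 with 387 CPM of Kcnj10.

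The gap junction genes Gja1 and Gjb6 encode connexin 43 and connexin 30, the main connexins of astrocytes, and their group means moved in opposite directions in TDP-PBS. Of the 10 TDP-PBS mice, 5 had Gja1 below and Gjb6 above the ctrl PBS median. Another 3 were below both medians and 2 were above both. Log2 CPM of the pair gave r = 0.81 in TDP-PBS, 0.52 in ctrl PBS, 0.33 in TDP10 + 12 and 0.29 in TDP15. These r values are a description. Of the TDP-PBS mice, 3 had over 100 CPM of Ttr, and r within the group was not computed without them. The upstream sequences of Gja1 and Gjb6, taken from the RefSeq promoter table (GRCm38.p6), are shown because the means of this pair diverged. Each is the 250 bases before the annotated start, 5′ to 3′ on the gene's strand, with any match to the motifs searched in capitals.
Gja1 (chr10:56377050-56377299): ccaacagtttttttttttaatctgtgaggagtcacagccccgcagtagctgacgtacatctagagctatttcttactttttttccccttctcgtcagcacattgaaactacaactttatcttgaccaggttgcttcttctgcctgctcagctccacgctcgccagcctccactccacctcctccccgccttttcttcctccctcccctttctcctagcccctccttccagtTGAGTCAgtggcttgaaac
Gjb6 (chr14:57133612-57133861): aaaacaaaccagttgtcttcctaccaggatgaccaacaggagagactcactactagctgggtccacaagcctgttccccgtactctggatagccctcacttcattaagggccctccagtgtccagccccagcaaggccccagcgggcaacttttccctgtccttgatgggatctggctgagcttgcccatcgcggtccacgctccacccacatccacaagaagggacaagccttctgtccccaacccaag
The capitals in Gja1 are an AP-1 motif (TGACTCA, here on the minus strand) that starts at position -19. Gjb6 held no match to any of the 7 motifs.

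The motifs were searched on both strands in 32851 promoter entries of 27025 genes, and a gene was counted where any of its entries held the word. Sox9 has no entry, the entry of Slc1a2 lies inside the gene and overlaps an exon, and Aldoc has 2 entries, one upstream and one inside the gene. The AP-1 word was in 5.16% of genes and in 1 of the 9 members with an entry (Gja1). The SP1 word GGGCGG was in 35.4% of genes and in 5 members (Slc1a3, Glul, Aldh1l1, Aldoc and Kcnj10). The STAT word TTCNNNGAA was in 8.13% and in 2 members (Slc1a3, and Aldoc in its inner entry alone). The SOX word ACAATG (12.2% of genes), the NF-kB word, which is GGG, any 2 bases and TTTCC (1.65%), the CRE word TGACGTCA (1.77%) and the E-box CACGTG (6.86%) matched 0 members. A match describes these letters in this window and no more.

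Gja1 (gene at chr10:56377300-56390419, plus strand) had a median of 95.4 CPM in ctrl PBS (range 87.4 to 120) and of 78.9 CPM in TDP-PBS (range 59.8 to 112). TDP10 + 12 mice had 60.7 to 93.1 CPM (median 79.8), and TDP15 mice had 54.0 to 106 CPM (median 70.9). Of the 32 rNLS8 mice, 26 were below every ctrl PBS mouse, and in TDP15 this held for 11 of 12, mouse 59 (106 CPM) being the exception. The log2 fold change was -0.29 ± 0.08 (adjusted p = 0.00283) in TDP-PBS, -0.33 ± 0.08 (adjusted p = 0.000976) in TDP10 + 12 and -0.46 ± 0.08 (adjusted p = 2.2e-06) in TDP15, the last being 72.6% of the ctrl PBS level. These 3 calls held under every alternative run and without each mouse.

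Gjb6 (gene at chr14:57123301-57133611, minus strand) had a median of 30.0 CPM in ctrl PBS (range 24.0 to 39.4) and of 36.1 CPM in TDP-PBS (range 23.0 to 51.8). The median was 30.8 CPM among TDP10 + 12 mice (range 28.6 to 40.4) and 34.8 CPM among TDP15 mice (range 26.8 to 44.1). In TDP-PBS 4 of 10 mice exceeded every ctrl PBS mouse, and mouse 217 was below all of them. Its rise in TDP-PBS was 0.24 ± 0.10 on the log2 scale (adjusted p = 0.0405), and in TDP10 + 12 (0.09 ± 0.10, adjusted p = 0.470) and TDP15 (0.17 ± 0.09, adjusted p = 0.115) it did not pass. The TDP-PBS call was lost without the 8 mice with olfactory markers (0.21, adjusted p = 0.112) and without the 10 with high Ttr (0.17, adjusted p = 0.181), and leaving out any one of ctrl PBS mice 110, 131, 193, 280 and 318 or TDP-PBS mice 26, 82, 91, 124 and 251 ended it, with an adjusted p of up to 0.158 and a log2 fold change of 0.17 without mouse 82.

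Kcnj10 encodes Kir4.1, the inward-rectifying channel that takes up potassium (chr1:172341210-172374085, plus strand). Its medians were 238, 245, 237 and 251 CPM in ctrl PBS, TDP-PBS, TDP10 + 12 and TDP15, and the ranges were 214 to 298, 187 to 279, 180 to 387 and 189 to 305 CPM. The groups overlapped in their centre, while 8 of the 32 rNLS8 mice lay below and 2 above every ctrl PBS mouse. The log2 fold changes against ctrl PBS were -0.05, -0.01 and 0.01, each with an SE of 0.08. TDP10 + 12 mouse 301 held 387 CPM, beside 269 CPM in the next mouse of its group, and without it the change in that group was -0.09 (adjusted p = 0.337).

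Aldoc, an aldolase of glycolysis in astrocytes (chr11:78323073-78327781, plus strand), was at 451 to 594 CPM in ctrl PBS and at 426 to 626, 436 to 628 and 469 to 589 CPM in TDP-PBS, TDP10 + 12 and TDP15. Its log2 fold changes were all 0.02, with 95% intervals that stayed between -0.09 and 0.13. Aldh1l1, a folate enzyme used widely as a pan-astrocyte marker (chr6:90550768-90599171, plus strand), had medians of 37.1, 34.3, 33.3 and 33.6 CPM in the same order. Its changes of -0.04, -0.12 and -0.11 did not pass the test, although limma-voom called it in TDP15 (-0.15, adjusted p = 0.0495). S100b, a secreted calcium-binding protein (chr10:76253836-76261319, plus strand), had medians of 78.6, 83.3, 76.7 and 76.4 CPM and changes of 0.04, -0.03 and -0.03, each within 0.14 of 0 at the 95% limits.

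Sox9, the transcription factor that specifies astrocytes during development (chr11:112782210-112787757, plus strand), had a median of 42.9 CPM in ctrl PBS (range 37.2 to 51.0) and of 45.2 CPM in TDP-PBS (range 37.2 to 66.9). In TDP10 + 12 the range was 39.5 to 52.8 CPM (median 46.2) and in TDP15 35.2 to 55.4 CPM (median 44.8). Of 10 TDP-PBS mice, 3 exceeded every ctrl PBS mouse, with mouse 82 the highest. The log2 fold changes of 0.16 ± 0.07 (adjusted p = 0.0683), 0.13 ± 0.07 (adjusted p = 0.141) and 0.05 ± 0.07 (adjusted p = 0.541) did not pass the test. In TDP-PBS the call depended on the setting, since sex as a covariate gave 0.17 with an adjusted p of 0.0467 and leaving out any one of ctrl PBS mice 71, 84 and 146, TDP-PBS mice 124, 196, 217, 233 and 251 or TDP10 + 12 mice 51, 200, 277 and 313 made the call, with values from 0.17 to 0.20. These were 12 of the 49 mice, and over all 49 the change was 0.09 to 0.20 with an adjusted p of up to 0.284. Of 11 alternatives 1 made the call, over a range of 0.06 to 0.17.

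Immunized and sham-treated rNLS8 mice were next compared directly. This asks whether the vaccines, peptide and ovalbumin together, changed astrocyte support genes in diseased mice. For none of the 10 genes did a difference pass edgeR's quasi-likelihood test in TDP10 + 12 against TDP-PBS, TDP15 against TDP-PBS or TDP10 + 12 against TDP15. In each of these comparisons 0% of all genes were called, while 953, 552 and 1244 genes had an unadjusted p under 0.05, among them 0 of the 10. DESeq2 also called 0 genes in each. The smallest unadjusted p of a member was 0.0841 for Glul in TDP10 + 12 against TDP-PBS (log2 fold change -0.15, 95% interval -0.33 to 0.02), 0.0621 for Gja1 in TDP15 against TDP-PBS (-0.17, interval -0.34 to 0.01) and 0.138 for Gja1 in TDP10 + 12 against TDP15 (0.13, interval -0.04 to 0.31). For Slc1a2 the intervals were -0.12 to 0.21 in TDP10 + 12 and -0.16 to 0.15 in TDP15, each against TDP-PBS. A return of Slc1a2 by all of the 0.35 log2 units that separated TDP-PBS from ctrl PBS lies outside both intervals. A partial return of up to 0.21 in TDP10 + 12 or 0.15 in TDP15 lies within them. The difference of TDP-PBS from ctrl PBS is itself an estimate (-0.35, 95% interval -0.50 to -0.21) that rests on the same TDP-PBS mice. Over the 10 genes the widest intervals against TDP-PBS reached -0.36 (Gjb6, TDP10 + 12) and 0.23 (Kcnj10, TDP15).

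The genotype difference was examined by sex in the 27 PBS-treated mice. Slc1a2 changed by -0.37 in females and -0.32 in males, Gja1 by -0.34 and -0.26, and Gjb6 by 0.28 and 0.22 on the log2 scale. The signs differed between females and males for Aldh1l1 (0.07 and -0.11), Aldoc (-0.02 and 0.08) and Kcnj10 (0.01 and -0.05). The SE of the difference between the sexes ran from 0.09 (S100b) to 0.22 (Gjb6). The interaction of genotype and sex called 0 of 17363 genes and 0 of the 10, with 1097 genes and 0 of the 10 at an unadjusted p under 0.05. The lowest adjusted p of the 10 was 0.826, for Aldh1l1.

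Other genes of astrocyte support, 34 in all, moved in both directions. In TDP-PBS 13 fell (38.2%), 5 rose (14.7%) and 16 did not pass, beside 21.6% lower and 21.9% higher among all genes, with a median log2 fold change of -0.07. In TDP10 + 12 10 fell (29.4%) and 2 rose (5.88%), beside 20.0% and 20.8%, and in TDP15 16 fell (47.1%) and 4 rose (11.8%), beside 23.2% and 23.6%. Without the mice with olfactory markers the counts were 12 lower and 5 higher in TDP-PBS, beside 20.7% and 21.3% of all genes. Without the mice with high Ttr they were 10 lower and 2 higher, beside 18.4% and 18.9%. Among those that fell in TDP-PBS were Fabp7, a brain lipid-binding protein of immature astrocytes (-1.10 ± 0.27, adjusted p = 0.000614), Id4, a transcriptional inhibitor (-0.33 ± 0.08, adjusted p = 0.000983), Slc6a11, the astrocytic GABA transporter GAT-3 (-0.31 ± 0.08, adjusted p = 0.00168), and Chrdl1, a secreted synapse-maturing factor (-0.30 ± 0.10, adjusted p = 0.00892). Fabp7 was at 3.38 to 18.0 CPM in ctrl PBS and at 2.11 to 5.04 CPM in TDP-PBS, and its highest level was in ctrl PBS mouse 280, which also had the highest Eomes (24.5 CPM), Cdhr1 (90.6 CPM), Doc2g (68.9 CPM), Th (33.1 CPM) and Calb2 (67.0 CPM) of its group. Omp was higher in ctrl PBS mouse 131 (16.9 CPM) than in mouse 280 (9.43 CPM), and mouse 280 was also among those with high Ttr. Without the 8 mice with olfactory markers Fabp7 changed by -0.76 ± 0.19 (adjusted p = 0.000971), and without the 10 with high Ttr by -0.94 ± 0.28 (adjusted p = 0.00713). Among those that rose were Mertk, a phagocytic receptor (0.26 ± 0.08, adjusted p = 0.00853), Nfib, a gliogenic transcription factor (0.26 ± 0.05, adjusted p = 0.000132), Cst3, the protease inhibitor cystatin C (0.21 ± 0.07, adjusted p = 0.00996), and Clu, the chaperone clusterin (0.18 ± 0.06, adjusted p = 0.00904). Without the mice with high Ttr, the calls of Chrdl1 (-0.14, adjusted p = 0.284), Cst3 (0.14, adjusted p = 0.117) and Clu (0.14, adjusted p = 0.0732) were lost. Microglia also express Mertk and Cst3, and microglial markers rose in these mice as given next. The part of microglia in the changes of Mertk and Cst3 was not tested. Aqp4, the water channel of astrocyte endfeet, was at 77.0 ± 11.7 CPM in ctrl PBS and 78.2 ± 12.8 CPM in TDP-PBS.

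Reactive astrocyte genes were tested in the same fit. Of 25 tested, 19 rose and 0 fell in TDP-PBS, with a median log2 fold change of 0.75 for the list, beside 21.9% of all genes that rose. In TDP10 + 12 and TDP15 20 and 18 rose, beside 20.8% and 23.6% of all genes. In TDP-PBS 16 rose without the mice with olfactory markers and 14 without those with high Ttr, the median being 0.72 and 0.52. Among all genes 21.3% and 18.9% rose in these fits. Gfap, the intermediate filament of astrocytes, rose from 123 ± 27.1 CPM in ctrl PBS to 381 ± 111 CPM in TDP-PBS (1.64 ± 0.18 on the log2 scale, adjusted p = 9.9e-11), and 30 of 32 rNLS8 mice exceeded every ctrl PBS mouse. Vim rose by 1.20 ± 0.16 and Serpina3n by 1.91 ± 0.26 (adjusted p = 2.3e-08 each). Markers of other cells are given beside the 43.5% of all genes called in TDP-PBS. Of 12 neuron markers 7 fell and 1 rose in TDP-PBS, led by Nefl (-0.99), and their summed level was 8320 to 10097 CPM beside 10067 to 12091 CPM in ctrl PBS. Of 14 microglia and macrophage markers 11 rose, led by C1qc (1.11), with sums of 425 to 649 CPM beside 315 to 383 CPM. In TDP-PBS 1 of 10 oligodendrocyte markers rose (Cldn11, 0.47), 1 of 6 precursor markers rose (Bmp4, 0.54) and 1 of 10 endothelial and mural markers fell (Rgs5, -0.23). In TDP10 + 12 the counts were 0 of 10, 4 of 6 higher and 1 of 10 lower, and in TDP15 they were 1 of 10 higher, 1 of 6 higher and 3 of 10 lower. Among all genes 40.8% were called in TDP10 + 12 and 46.9% in TDP15. Without the mice with high Ttr, 0 precursor markers were called in TDP-PBS (Bmp4, 0.44, adjusted p = 0.0606) and in TDP15 (Bmp4, 0.39, adjusted p = 0.0670). In TDP10 + 12 3 precursor markers were then higher and 1 oligodendrocyte marker was lower, and in TDP15 2 endothelial and mural markers were lower. Among all genes 18.9%, 19.2% and 21.5% were higher in TDP-PBS, TDP10 + 12 and TDP15 in that fit, and 18.4%, 18.4% and 20.5% were lower. The 10 homeostatic genes summed to 3893 to 5037 CPM in ctrl PBS and 3147 to 4600 CPM in TDP-PBS. The part of these other shifts in the results for the 10 genes was not tested.

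**Figure D3:**
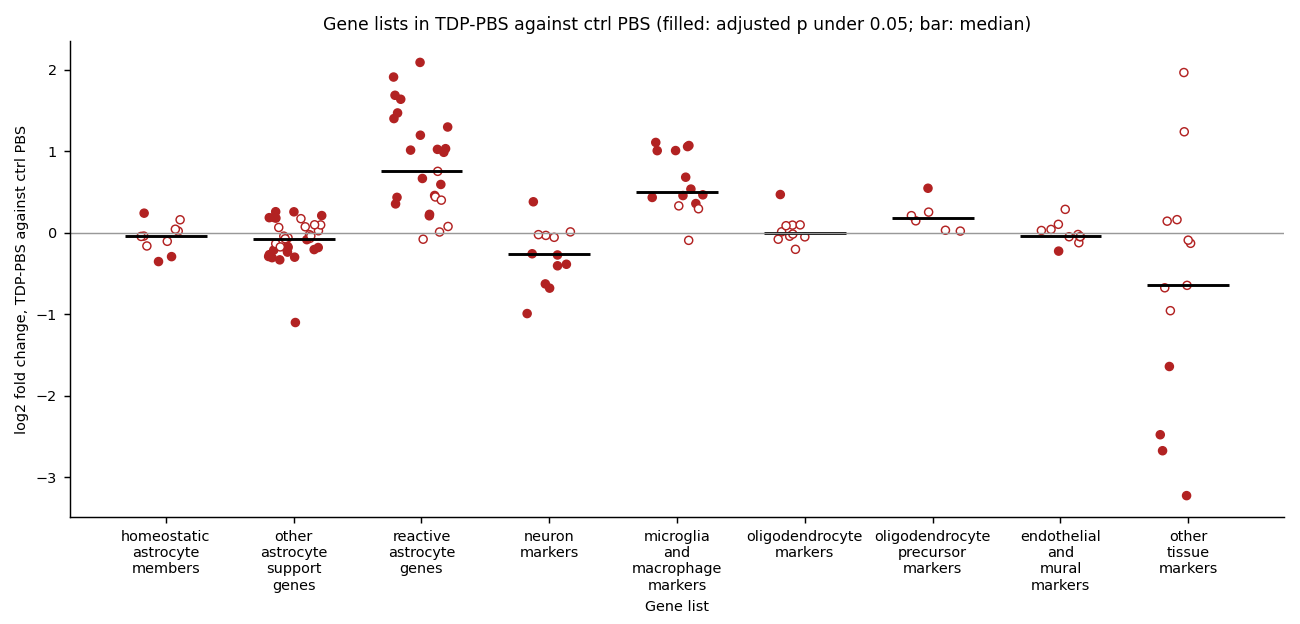
Log2 fold change in TDP-PBS against ctrl PBS (y axis) of each gene in 9 lists (x axis), filled where the adjusted p was under 0.05, with the list median as a bar. The 10 homeostatic genes center on -0.04, the 34 support genes on -0.07 and the 25 reactive genes on 0.75, while the 13 markers of other tissues spread from -3.23 to 1.96.

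Covariation of the 10 genes between mice of one group was examined next. After subtracting group means, log2 CPM of the 49 mice was correlated between all 45 pairs of the 10 genes. A two-sided permutation test within groups, adjusted over the 45 pairs, passed in 25 pairs, all of them positive in the 49 mice, and 23 passed by Spearman's rho. Without the 8 mice with olfactory markers 24 pairs passed. Without the 10 mice with high Ttr 13 passed, 11 of them among the 25, and the other 2 were negative (Kcnj10 with Slc1a3, r = -0.56, permutation adjusted p = 0.00315, and with Gja1, r = -0.47, permutation adjusted p = 0.0280). The strongest pair was Glul with Gjb6 (r = 0.84, rho = 0.82, permutation p = 1e-05, the smallest that these permutations can give, adjusted p = 7.5e-05), followed by Slc1a3 with Gja1 (r = 0.82, rho = 0.78, with the same p values). Both passed without the 10 mice with high Ttr (r = 0.80 and 0.82). Without the 2 mice farthest from the median, these were 0.83 and 0.78. Within the groups Slc1a3 with Gja1 gave r = 0.63 in ctrl PBS, 0.98 in TDP-PBS, 0.85 in TDP10 + 12 and 0.84 in TDP15, and Glul with Gjb6 gave 0.84, 0.93, 0.76 and 0.79. In the 49 mice Gja1, Glul, Gjb6 and Aldoc each passed with 7 of 9 partners. Without the 10 mice with high Ttr, Gja1 with Gjb6 no longer passed (r = 0.33, permutation adjusted p = 0.245). The same held for Slc1a3 with Glul (r = 0.32, permutation adjusted p = 0.180), Aldoc (0.37, 0.0854) and Gjb6 (0.20, 0.411). Glul with Aldoc and Gja1, and Aldoc with Gja1 and Gjb6, still passed. Kcnj10 passed with 1 (Aldh1l1, r = 0.46) and S100b with 2, the fewest of the 10. The lowest pair was Slc1a3 with Kcnj10 (r = -0.30, rho = -0.25, permutation adjusted p = 0.0823). The 10 genes of a mouse share its piece of tissue and its scaling, and markers of other tissues differed between mice. Whether a varying dissection or astrocyte share moved these pairs was not tested.

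**Figure D4:**
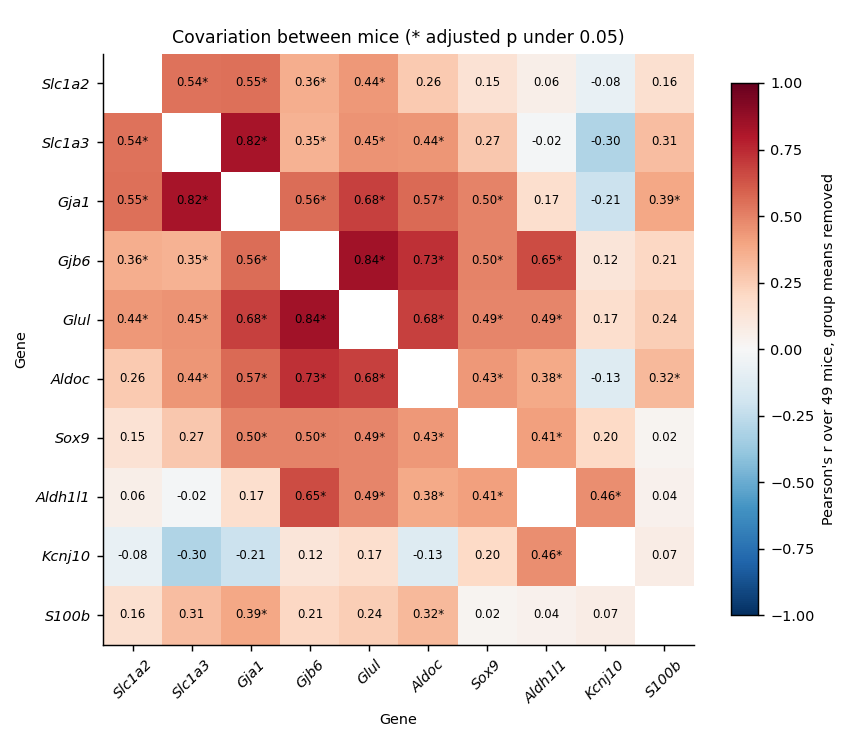
Pearson's r between the 10 genes over 49 mice after removal of group means (colour scale from -1 to 1), with an asterisk for an adjusted permutation p under 0.05. Glul, Gjb6, Gja1, Aldoc and Slc1a3 form a block of positive values, and the row of Kcnj10 holds 4 values below 0. Not all pairs of this block passed without the mice with high Ttr.

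**Figure D5:**
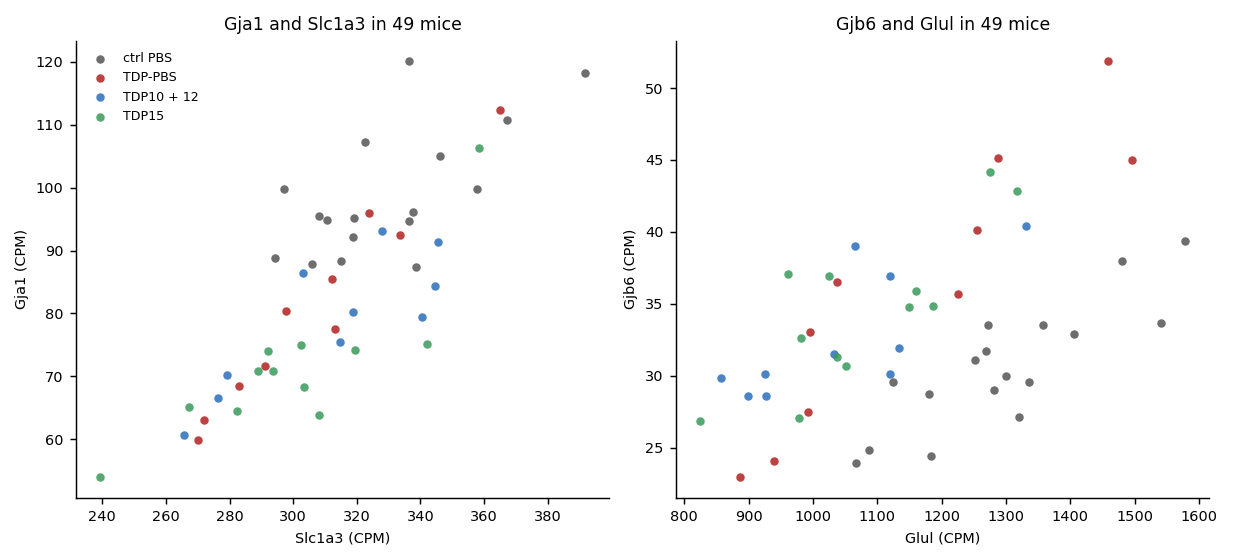
CPM of Gja1 against Slc1a3 (left) and of Gjb6 against Glul (right), 1 point per mouse, coloured by group. Both pairs rise together within each group, and on the right most rNLS8 mice lie above the ctrl PBS mice at the same Glul level.

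The genes most like each member across mice, by r of group-centred log2 CPM among 18220 genes, were named 2 to a member. Gja1 was closest to Slc1a3 (0.82) and Plpp3 (0.82), Aldoc to Clu (0.81) and Fam107a (0.80), and Glul to Gjb6 (0.84) and Daam2 (0.81). Gjb6 was closest to Glul (0.84) and Fam107a (0.77), Slc1a3 to Gja1 (0.82) and Myorg (0.79), and Sox9 to Zfp36l1 (0.79) and Sox2 (0.69). Slc1a2 was closest to Ntrk2 (0.67) and Gpc5 (0.65), and Aldh1l1 to Gjb6 (0.65) and Htra1 (0.65). Kcnj10 differed, with Creb3l2 (0.75) and Tagln2 (0.74), and S100b had weak neighbours, Dnajb6 (0.55) and Ndufa8 (0.54). The r with Gfap was 0.68 for Kcnj10, 0.65 for Aldh1l1 and 0.42 for Sox9, against -0.10 for Slc1a2 and -0.03 for Gja1. These values describe 49 mice and carry no test. TDP10 + 12 mouse 301 held the highest Kcnj10 (387 CPM) and the highest Gfap (1133 CPM) of all 49 mice. The r values of this paragraph were not computed again without that mouse or without the mice with high Ttr.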

How the data were processed

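The authors prepared mRNA libraries from about 30 mg of neocortex and 200 ng of RNA per mouse, sequenced them as paired 100 bp reads and deposited a table of unnormalized counts, with genes as rows and mice as columns. The submitters' processing notes name HISAT, HISAT2, Bowtie, Bowtie2, RSEM and mm10, and the annotation, versions and strand setting are not given in the sources used here. Slc1a2, Glul and Aldh1l1 overlap other annotated genes and are to that extent uncertain. Counts were filtered (filterByExpr, minimum count 10, minimum total 15) and TMM-scaled, and 1 model of all 49 mice was fitted with glmQLFit and glmQLFTest (edgeR 4.0.16, R 4.3.3), without covariates, two-sided, with an adjusted p under 0.05 over all genes as the threshold. Log2 CPM used a prior count of 2. Exon lengths were unions of GENCODE M21 basic exons. Within groups no 2 libraries were copies (smallest chi-squared per degree of freedom 7.24 over 292 pairs). P-values measure the spread between mice. Permutations used 100000 resamples. The scripts were tested on simulated data.

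Alternatives were DESeq2's size factors, upper-quartile scaling, no filter, a minimum of 10 counts in each mouse, adjustment for sex, adjustment for 2 surrogate variables (sva 3.50.0), fits restricted to the pair of groups tested, limma-voom with quality weights (limma 3.58.1), DESeq2 (1.42.0), each mouse left out, and, chosen after seeing the data, removal of the 8 mice with olfactory markers or of the 10 mice with over 100 CPM of Ttr. The members and lists were chosen with earlier results of these data known. Named were all members, the 4 support genes with the largest and the 4 with the smallest fold change among those called in TDP-PBS, Gfap, Vim and Serpina3n, the called gene with the largest absolute change in other lists and the 2 genes closest to each member. Aqp4 and the markers of other tissues were named after their values were seen. Figures were drawn with matplotlib 3.10.9.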

Additional observations from a re-analysis of the deposited data

Results flagged for a closer look

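Kcnj10 in TDP10 + 12 mouse 301 was measured at 386.8 CPM, far from the other mice of its group, the next of which had 269.1 CPM. The gap was 0.569 of the group's range, above Dixon's 95% critical value for 10 mice. In the same mouse Gfap was at 1133 CPM, the highest of all 49 mice, and Aldh1l1 was the highest of its group (41.2 CPM), while Slc1a3, Glul, Aldoc and Gja1 were the lowest of their group (266, 858, 436 and 60.7 CPM). Without this mouse Kcnj10 changed by -0.09 in TDP10 + 12 against ctrl PBS (adjusted p = 0.337, edgeR's quasi-likelihood test). Only the groups of 10 mice, TDP-PBS and TDP10 + 12, were tested, which gave 20 groups over the 10 genes. This was the 1 flagged, and chance flags about 1 in 20. The 17 ctrl PBS and 12 TDP15 mice were not tested this way. Mice stood apart there too, such as TDP15 mouse 59 with 106 CPM of Gja1, beside 75.2 CPM in the next mouse and 54.0 CPM in the lowest.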

How the results depend on the processing

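Of the 10 calls against ctrl PBS, 8 held under all 11 alternatives and without each of the 49 mice; the others were Gjb6 in TDP-PBS and Slc1a3 in TDP15. Without 1 mouse, 2 to 4 genes were called in TDP-PBS, 3 in TDP10 + 12 and 3 to 4 in TDP15 against ctrl PBS, and 0 in the comparisons between rNLS8 groups. Gjb6 in TDP-PBS was also lost with no filter (0.24, adjusted p = 0.0661), only the groups compared (0.25, adjusted p = 0.0547) and limma-voom (0.19, adjusted p = 0.106). A fit of only the groups compared also called Sox9 in TDP10 + 12 (0.13, adjusted p = 0.0454) and Gjb6 in TDP15 (0.18, adjusted p = 0.0498), and limma-voom called Slc1a3 in TDP-PBS (-0.12, adjusted p = 0.0350). Without the mice with over 100 CPM of Ttr, 13 pairs of genes were correlated in place of 25. The causes of these changes were not tested, although dropping mice also leaves fewer to test. No paired analysis was possible because the labels give no litter or other number that groups share. The lowest count of the 10 genes was 475 reads, and depth was not varied.

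No called change reversed. Uncalled changes near 0 changed sign, with these log2 fold changes. With upper-quartile scaling, Aldoc was 0.00046 in TDP10 + 12 against TDP-PBS. With no filter it was 0.0013, and S100b was 0.0018 in TDP10 + 12 against TDP15. With 10 counts in every mouse these were 0.00025 and 0.00082. S100b in that comparison was 0.0019 with sex as a covariate, 0.0067 with 2 surrogate variables and 0.00092 with only the groups compared, and Aldoc in TDP15 against TDP-PBS was -0.0010 with surrogate variables. With limma-voom, Aldoc was -0.012 in TDP-PBS and Kcnj10 -0.0045 in TDP15 against ctrl PBS. In TDP10 + 12 against TDP-PBS, limma-voom gave 0.055 for Aldoc, -0.041 for Kcnj10, 0.024 for Gja1 and 0.021 for Sox9, and in TDP10 + 12 against TDP15 it gave 0.0089 for Aldh1l1 and 0.017 for Aldoc. Without the mice with olfactory markers, Aldoc was 0.015 in TDP10 + 12 and Slc1a2 0.021 in TDP15 against TDP-PBS, and in TDP10 + 12 against TDP15 Aldoc was 0.0014 and S100b 0.0014. Without the mice with high Ttr, Aldoc was -0.016 in TDP-PBS and Kcnj10 0.036 in TDP10 + 12 against ctrl PBS, Slc1a2 -0.0043, Aldoc 0.020 and Sox9 0.060 in TDP10 + 12 against TDP-PBS, and Aldh1l1 0.016, Kcnj10 0.0072 and S100b 0.0095 in TDP10 + 12 against TDP15.

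With 1 mouse left out, the range against ctrl PBS was -0.0030 to 0.061 for Aldoc in TDP-PBS, -0.095 to 0.044 for Kcnj10 in TDP10 + 12 and -0.025 to 0.044 for Kcnj10 in TDP15. For TDP10 + 12 against TDP-PBS it was -0.031 to 0.028 for Aldoc, -0.060 to 0.078 for Kcnj10, -0.075 to 0.029 for Gja1 and -0.061 to 0.039 for Sox9. For TDP15 against TDP-PBS it was -0.052 to 0.039 for Slc1a2, -0.026 to 0.032 for Aldoc and -0.12 to 0.0069 for Gjb6. For TDP10 + 12 against TDP15 it was -0.042 to 0.023 for Aldh1l1, -0.034 to 0.023 for Aldoc, -0.11 to 0.027 for Kcnj10 and -0.022 to 0.037 for S100b.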

Other observations

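Ratios of raw counts within a library do not depend on scaling between libraries. The pairs below were chosen after their values were seen, so no test is given. Gjb6 counts per Glul count had a median of 0.0234 among ctrl PBS mice (range 0.0205 to 0.0263) and of 0.0310 among TDP-PBS mice (range 0.0256 to 0.0355). The TDP10 + 12 median was 0.0313 (range 0.0269 to 0.0366) and the TDP15 median 0.0317 (range 0.0277 to 0.0385). All 10 TDP10 + 12 and all 12 TDP15 mice, and 8 of 10 TDP-PBS mice, exceeded every ctrl PBS mouse, although neither gene alone separated the groups. Gjb6 counts per Gja1 count, connexin 30 per connexin 43, spanned 0.245 to 0.413 among ctrl PBS mice. The TDP-PBS mice spanned 0.351 to 0.562, the TDP10 + 12 mice 0.313 to 0.517 and the TDP15 mice 0.363 to 0.683, and 6 of 10, 6 of 10 and 10 of 12 rNLS8 mice exceeded every ctrl PBS mouse.

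TDP15 mouse 126 held the lowest level of all 49 mice for Slc1a2 (885 CPM), Slc1a3 (239 CPM) and Gja1 (54.0 CPM), and in TDP15 the highest for Kcnj10 (305 CPM), Aldh1l1 (41.8 CPM) and Gfap (585 CPM). TDP-PBS mouse 217 was the lowest of its group for 7 of the 10 genes, and mouse 82 the highest for Aldh1l1, Gjb6 and Sox9. Both were among the 3 TDP-PBS mice with over 100 CPM of Ttr. The spread between mice was wider in TDP-PBS than in ctrl PBS for 9 of the 10 genes, with a coefficient of variation of 20.2% beside 10.3% for Gja1 and 26.5% beside 14.1% for Gjb6. This difference in spread was not tested, and the spread was not computed without the mice with high Ttr.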
